A study of Homo sapiens with 2 samples.

Results

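Flag CUT&Tag peaks that TRPS1-WT and TRPS1-MT cells had in common at the promoters of protein-coding genes were examined. A member was chosen by 2 measured properties, namely a peak of the TRPS1-WT list that shared at least 1 bp with a peak of the TRPS1-MT list and a midpoint within 1 kb of the canonical transcription start site (TSS) of a protein-coding gene. On chromosomes 1 to 22 and X this rule selected 7931 of 173296 TRPS1-WT peaks, or 4.58%. The TRPS1-MT list held 325557 peaks on the same chromosomes. The members made up 15.1% of the 52624 TRPS1-WT peaks that overlapped the TRPS1-MT list, and the other 44693 shared peaks lay away from these promoters.

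The cells were HCT116, an established human colorectal carcinoma line of epithelial origin, carrying a lentiviral Flag-tagged TRPS1 that was either wild type (TRPS1-WT) or the R544Q mutant (TRPS1-MT). Both lines therefore made the tagged protein ectopically in a background with its own TRPS1 gene, and no vector control was analysed here. In CUT&Tag an antibody, here against Flag, tethers a transposase that cuts and tags the DNA around the bound protein. Each condition had 1 library, so no replicate error exists, every comparison is between 2 libraries rather than 2 conditions, and the 95% intervals given cover counting error only. No control library is named in the sources used here, so open chromatin and binding of TRPS1 cannot be told apart at any peak.

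TRPS1 is a zinc finger transcription factor with a GATA-type DNA-binding domain that recognises the GATA motif and is known mainly as a repressor in skeletal and hair follicle development. Promoters of widely expressed genes usually lie in CpG islands, where the CCAAT box, bound by the trimeric factor NFY, and the GC box, bound by SP and KLF factors, recruit the transcription machinery just upstream of the TSS. Distal enhancers of epithelial cells more often carry the AP-1 site, bound by FOS and JUN proteins.

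The sequences under the strongest members are shown first because the results turn on the motifs in them. Each spans the TRPS1-WT summit and 100 bp on each side of it in GRCh37 (hg19), written 5′ to 3′ on the strand of the gene, with capitals for the CCAAT box (CCAAT or its complement ATTGG) and for the GATA motif (AGATAA or AGATAG or TGATAA or TGATAG, on either strand). These were the 8 members best placed in both libraries among those whose window lay outside every annotated exon. All lay upstream of the TSS except that of SPAG7, which lay in the first intron. They were chr19:4471792-4471992 on the plus strand for HDGFL2, chr19:17377894-17378094 on the plus strand for ENSG00000269307, chr17:61699405-61699605 on the plus strand for MAP3K3, chr19:39341045-39341245 on the minus strand for HNRNPL, chr14:23790276-23790476 on the plus strand for PABPN1, chr12:53773501-53773701 on the plus strand for SP1, chr17:4870576-4870776 on the minus strand for SPAG7 and chr19:6737687-6737887 on the minus strand for GPR108.
HDGFL2: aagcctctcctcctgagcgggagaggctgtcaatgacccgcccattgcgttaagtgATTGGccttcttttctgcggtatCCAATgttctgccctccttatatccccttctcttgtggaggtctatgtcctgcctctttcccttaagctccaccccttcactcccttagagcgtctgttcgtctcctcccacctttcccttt
ENSG00000269307: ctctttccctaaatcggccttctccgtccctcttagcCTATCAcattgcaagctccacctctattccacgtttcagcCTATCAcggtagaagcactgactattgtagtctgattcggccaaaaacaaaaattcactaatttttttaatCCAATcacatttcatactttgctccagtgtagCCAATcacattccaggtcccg
MAP3K3: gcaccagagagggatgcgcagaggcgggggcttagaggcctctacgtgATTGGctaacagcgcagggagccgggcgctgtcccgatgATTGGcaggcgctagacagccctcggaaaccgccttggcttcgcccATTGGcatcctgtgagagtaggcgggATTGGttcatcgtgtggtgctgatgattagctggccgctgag
HNRNPL: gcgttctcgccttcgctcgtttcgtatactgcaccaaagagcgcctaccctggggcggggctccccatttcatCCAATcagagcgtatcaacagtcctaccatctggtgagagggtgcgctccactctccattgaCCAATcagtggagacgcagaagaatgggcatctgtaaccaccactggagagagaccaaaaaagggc
PABPN1: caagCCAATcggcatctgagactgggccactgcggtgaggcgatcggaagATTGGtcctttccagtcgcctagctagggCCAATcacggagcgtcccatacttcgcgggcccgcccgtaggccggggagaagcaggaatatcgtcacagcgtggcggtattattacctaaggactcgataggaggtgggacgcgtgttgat
SP1: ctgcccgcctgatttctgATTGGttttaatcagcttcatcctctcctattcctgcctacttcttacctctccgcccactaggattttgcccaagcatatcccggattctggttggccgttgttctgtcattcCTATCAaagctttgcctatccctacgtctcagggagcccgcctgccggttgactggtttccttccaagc
SPAG7: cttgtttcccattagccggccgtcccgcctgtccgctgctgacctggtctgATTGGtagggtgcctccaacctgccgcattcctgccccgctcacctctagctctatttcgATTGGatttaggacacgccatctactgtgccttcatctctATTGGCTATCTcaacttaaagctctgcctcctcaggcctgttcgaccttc
GPR108: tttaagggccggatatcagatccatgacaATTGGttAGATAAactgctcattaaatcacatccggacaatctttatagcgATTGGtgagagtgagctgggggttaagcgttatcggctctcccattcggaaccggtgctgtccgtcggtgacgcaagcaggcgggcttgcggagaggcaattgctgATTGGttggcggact
All held a CCAAT box. The MAP3K3 window held 4, the PABPN1, SPAG7 and GPR108 windows 3 each, the HDGFL2, ENSG00000269307 and HNRNPL windows 2 each and the SP1 window 1. There were 2 GATA motifs at ENSG00000269307, 1 each at SP1, SPAG7 and GPR108, and none in the other 4 windows.

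Strength is given as tags at the summit, that is, the number of sequenced tags whose extended fragments covered the highest point of the peak, recovered from the fold and −log10 p of the authors' peak caller. The strongest member of the TRPS1-WT library lay upstream of HDGFL2, which encodes a chromatin-binding PWWP protein, with 3547 tags (95% Poisson interval 3431 to 3666), and the same site held 4777 tags in the TRPS1-MT library. The strongest of the TRPS1-MT library lay upstream of HNRNPL, a splicing regulator, with 5303 tags against 2787 in the TRPS1-WT library. The second strongest TRPS1-WT member, at ENSG00000269307, also lay within 1 kb of the TSS of BABAM1, a subunit of BRCA1 complexes, and held 2863 and 2970 tags. These sites were high in both libraries.

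The next members were taken in order of their worse rank in the 2 libraries. MAP3K3, a kinase at the top of MAP kinase cascades, had 2412 TRPS1-WT and 3043 TRPS1-MT tags. KPNB1, which encodes importin β, had 2609 and 2790, and TOMM40, the channel of the mitochondrial outer membrane translocase, had 2616 and 2841. PABPN1, the nuclear poly(A)-binding protein, had 2147 and 2828 tags, and SP1, itself a GC box factor, had 2332 and 2746. SPAG7 followed with 2499 and 2938 tags, and GOLGB1, a large Golgi membrane protein, with 2104 and 2959. Of these 10 summits 9 lay upstream of the TSS, between −519 bp at HNRNPL and −132 bp at GOLGB1, while that of SPAG7 lay in the first intron at 436 bp. All 10 windows held a CCAAT box in both libraries. Of the 100 strongest members in each library, 82 were the same.

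Most members were far weaker. The median member had 48 TRPS1-WT tags (quartiles 28 and 89) and 71 TRPS1-MT tags (quartiles 42 and 128), and 50 members reached 1000 TRPS1-WT tags. Of the TRPS1-WT promoter peaks 70.3% overlapped the TRPS1-MT list, against 27.6% of the other TRPS1-WT peaks. Members were stronger than the 3350 TRPS1-WT promoter peaks outside the TRPS1-MT list, whose median was 20 tags. They were also stronger than the shared peaks elsewhere, whose medians were 28 and 39 tags. Since the rule used the presence of a peak in both lists, these levels are a description. Median width was 417 bp in the TRPS1-WT list and 577 bp for the overlapping TRPS1-MT peak.

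The CCAAT box followed strength. Among the 100 strongest members by TRPS1-WT −log10 p, 84.0% held a CCAAT box within 100 bp of the summit (95% Wilson interval 75.6 to 89.9). The share was 60.2% in the next 400, 41.7% in the next 1500 and 25.8% (24.7 to 27.0) in the remaining 5931. In windows 1 kb beside the same summits it was 21.0% in the first of these classes and 22.2% in the last. At least 2 copies were present in 63.0% of the 100 strongest members and in 6.37% of the last class. The letters of the box in reverse order, a string of the same composition, were found in 18.0% and 16.1%. The classes of rank and the reversed strings were chosen after the data were seen.

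The TRPS1-MT library had the same order when its own summits and ranks were used. The CCAAT box was present in 74.0% (64.6 to 81.6) of its 100 strongest members, then in 56.0%, 35.3% and 24.2% of the weaker classes. Across all members, 31.3% had a CCAAT box at the TRPS1-WT summit and 28.5% at the TRPS1-MT summit.

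The GATA motif, which the DNA-binding domain of TRPS1 recognises, also became more frequent with strength, but from a low level. It was present at 50% (40.4 to 59.6) of the 100 strongest TRPS1-WT summits, then at 31.0%, 19.4% and 15.4% (14.5 to 16.3) of the weaker classes. In windows 1 kb beside these summits the shares were 22.5%, 27.1%, 26.8% and 25%, so the weak members had fewer GATA motifs than the DNA beside them. The median GC content of the windows was 56.7% in the 100 strongest and 61.2% in the last class. The reversed letters of the motif also fell with rank, from 27.0% to 12.7%. In the 100 strongest the motif exceeded them by 23 percentage points (9.53 to 35.3). In the TRPS1-MT library the motif was present at 47.0% (37.5 to 56.7) of the 100 strongest summits and at 16.0% of the last class, and it exceeded the reversed letters by 23 points (9.76 to 35.2). Some forms of the reversed letters, GATAGA and GATAGT, hold GATA themselves, so both strings can match at the same bases. Both were scored in the same windows, whereas the intervals of these differences treat them as separate samples. With the TRPS1-WT members ranked by fold instead of −log10 p, 80.0% of the first 100 held the CCAAT box and 36.0% the GATA motif.

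Shared peaks away from these promoters had no such gradient in the CCAAT box. Their 100 strongest TRPS1-WT summits held it in 26%, which was 58.0 percentage points (45.4 to 67.6) below the 100 strongest members, and the TRPS1-MT difference was 54.0 points (41.1 to 64.1). The AP-1 site (TGACTCA or TGAGTCA) went the other way: it was present at 3.00% of the 100 strongest members and at 42% of the 100 strongest shared peaks elsewhere in the TRPS1-WT library, a difference of −39.0 points (−49.0 to −28.3). In the TRPS1-MT library these shares were 3.00% and 18.0%, a difference of −15.0 points (−23.9 to −6.67). For the GATA motif the difference was 16.0 points (2.32 to 28.9) in the TRPS1-WT library and −2.0 points (−15.5 to 11.6) in the TRPS1-MT library, where the interval included 0. For its reversed letters the differences were 2.0 points (−10.1 to 14.0) and −15.0 points (−27.2 to −2.12). The median GC content of these TRPS1-MT windows was 56.2% for members and 43.0% elsewhere, and the motif was not separated from it.

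Median tags were higher with each further CCAAT box. Members without a box at the TRPS1-WT summit had a median of 42 tags (n = 5448), those with 1 box 53, with 2 boxes 90, with 3 boxes 112 and with 4 or more 193 (n = 70). A GATA motif in the same window went with higher tags at every number of boxes. Without a CCAAT box the medians were 49 tags with the GATA motif and 41 without it. With 3 boxes they were 363 (n = 34) and 104 (n = 142). With 4 or more boxes they were 420.5 (n = 12) and 168.5 (n = 58). The TRPS1-MT library had the same order, from 63 tags with neither motif to 590 with a GATA motif and 4 or more boxes (n = 7). The quartiles overlapped widely, and members with neither motif reached 1012 TRPS1-WT tags. These groups were not matched for GC content.

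All words of 6 letters were also counted, without a choice of motif. Of 1532 words present in at least 15 of the 300 strongest TRPS1-WT members, the word with the highest share relative to the other members was ACCAAT, in 37.3% against 7.90%. Next came CGATAG, in 9.33% against 2.16%, and then CAATCA, in 46.3% against 11.1%. In the TRPS1-MT library CGATAG led with 10.0% against 1.89%, and ACCAAT followed with 30.7% against 7.56%. ACCAAT and CAATCA overlap the CCAAT box. CGATAG holds the letters GATA after a C and is none of the 4 forms of the GATA motif searched, so the motif shares above leave it out. Overlapping words share letters, so they are not independent, and the members compared were not matched for GC content.

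Other elements followed strength less or in the opposite direction. The GC box (GGGCGG, both strands) was present at 63.0% of the 100 strongest TRPS1-WT summits and at 42.3% of the remaining 5931. The E-box of ZEB and SNAI repressors (CAGGTA or CAGGTG), factors of epithelial to mesenchymal transition, was present at 8.0% of the 100 strongest and at 21.6% of the last class, a difference of −13.6 points (−17.6 to −6.54). Over all members the GC box was the most frequent of 15 motifs searched, at 45.3% of summits against 14.5% in windows 1 kb away. The NRF1 site stood at 5.65% against 0.42%, and the ETS site (CCGGAAGT) at 3.68% against 0.33%. The GATA motif was less frequent at the summits of all members than beside them, at 17.3% against 25.4%, and so was the TATA box (TATAAA), at 3.25% against 12.3%. In the last TRPS1-WT class the reversed letters of the GATA motif were also less frequent at the summits, at 12.7% against 22.9%. The TEAD site (GGAATG) was at 9.22% and 9.65%, with a difference of −0.44 points (−1.21 to 0.36) whose interval included 0.

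Summits lay mainly just upstream of the TSS. The TRPS1-WT summit was upstream in 67.3% of members (66.3 to 68.4) and the TRPS1-MT summit in 66.0% (64.9 to 67.0), with medians of −119 bp and −136 bp. The fullest interval of 100 bp began at −200 bp for TRPS1-WT and at −300 bp for TRPS1-MT. In the canonical transcript 18.3% of TRPS1-WT summits lay in the first intron, 9.68% in the untranslated part of the first exon and 3.16% in its coding part. The median was 60 TRPS1-WT tags for summits from −200 to −51 bp and 32 for those more than 500 bp downstream. In the 100 strongest members the CCAAT boxes lay at a median of −213 bp (quartiles −299 and −146), further upstream than the −114 bp of the other members. Only boxes within 100 bp of a summit were counted, so these positions follow the summits. The GATA motifs of the same sets lay at medians of −211 bp and −142 bp. Neighbouring CCAAT boxes in the same window were a median of 42 bp apart in both sets, a spacing that the window length limits.

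The summits of the 2 libraries were within 100 bp of each other in 47.9% of members (46.8 to 49.0), against 48.5% of shared peaks elsewhere, a difference of −0.63 percentage points (−1.83 to 0.56) whose interval included 0. The median distance was 106 bp. Over members, tags correlated between the libraries with a Spearman rho of 0.76 (n = 7928), and over shared peaks elsewhere with 0.77. Peaks of 1 library share its depth and fragment length, so these are descriptions.

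TRPS1-MT tags were a median of 1.42 times the TRPS1-WT tags of the same member (quartiles 1.02 and 2.0), against a median of 1.33 times over all shared peaks. This direction depended on the scale. The narrowest peak, which the caller sets to the fragment length it assumes, was 168 bp in the TRPS1-WT and 280 bp in the TRPS1-MT library, and the lowest background of the TRPS1-MT library was 1.60 times that of the TRPS1-WT library. On the fold, which divides tags by local background, the median ratio was 0.93 (quartiles 0.72 and 1.22). A ratio of tags of at least 2 times the median of all shared peaks was found in 11.2% of members, and in 11.1% of all shared peaks. At most the median divided by 2 was found in 8.02% of members (7.44 to 8.64), and in 10.5% of all shared peaks. The members thus differed little from all shared peaks in the high ratios and had slightly fewer low ratios.

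Among the 2875 members with at least 100 tags in 1 library, the lowest ratio was at SMIM6, a small membrane protein gene, with 352 TRPS1-WT and 66 TRPS1-MT tags, a ratio of 0.19 (0.14 to 0.24). CDK1, the kinase that drives entry into mitosis, had 102 and 24 tags. C1orf116 had 193 and 53, MEX3B, an RNA-binding protein gene, 140 and 40, and YLPM1 203 and 60. On the fold SMIM6 stood at 15.8 in the TRPS1-WT and 11.7 in the TRPS1-MT list, and CDK1 at 21.6 and 8.21. These 5 members were lower in the TRPS1-MT library on both scales. They were chosen for their low ratios and reached 100 tags only in the TRPS1-WT library. Fold and tags come from the same peak heights, so their shared direction is a description. The interval at SMIM6 does not allow for the choice of the lowest ratio.

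The 5 highest ratios each came from a weak TRPS1-WT peak beside a stronger one under the same TRPS1-MT peak. At SLC25A28, a mitochondrial iron carrier, a TRPS1-WT peak with 139 tags and its summit at −815 bp was paired with a TRPS1-MT peak of 2037 tags at −241 bp. Another member at this promoter had 1598 TRPS1-WT tags at −227 bp, so the ratio at the shared position was 1.27. At AGTPBP1, a carboxypeptidase that trims glutamates from tubulin, 88 TRPS1-WT tags were set against 1824 TRPS1-MT tags 724 bp away, at −1603 bp from the TSS. The stronger TRPS1-WT peak there had 586 tags, at −1491 bp and thus past the window of the rule, and the ratio to it was 3.11.

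The other 3 were of the same kind. AIFM1, a mitochondrial flavoprotein that acts in cell death, had 26 and 241 tags as paired, and 107 TRPS1-WT tags at the stronger peak. SNX29, a sorting nexin, had 31 and 284 as paired and 91 at the stronger peak, and ENSG00000288634, beside IFRD1, had 37 and 352 as paired and 80. Ratios to the stronger peak were 2.25, 3.12 and 4.4. Among all members 491 (6.19%) had a stronger TRPS1-WT peak under the same TRPS1-MT peak, with a median ratio of 2.65, and without them the median over members was 1.38. At each of the 5 lowest ratios a single TRPS1-WT peak lay under the TRPS1-MT peak, and the summits were 8 bp to 334 bp apart. The TRPS1-WT peak of MEX3B overlapped 2 TRPS1-MT peaks, and the paired one, with 40 tags, was the stronger.

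One stretch of the genome stood apart in the ratio. On chromosome 3 past 90 Mb, 288 members had a median of 54 TRPS1-WT and 106.5 TRPS1-MT tags and a median ratio of 1.87, against 1.5 on the rest of chromosome 3 and 1.4 on the other chromosomes. Shared peaks elsewhere on the same stretch had a ratio of 1.63 against 1.31 on other chromosomes. Of 166 windows of 10 Mb with at least 20 members, all 8 windows past 90 Mb of chromosome 3 had a median ratio above 1.7, as did 12 of the other 158. The local background moved with it: its median ratio at the members was 2.26 on this stretch and 1.62 on other chromosomes, and the ratio of fold was 0.89 against 0.93. The stretch was chosen after its values were seen, and neither the part of the local background in the ratio nor DNA copy number in the 2 lines was tested.

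A member was present at 7957 of 19819 protein-coding genes, which is the background of 40.1% (39.5 to 40.8). Since a promoter can hold several peaks and divergent genes share peaks, the members lay nearest to 7067 TSSs, 827 of which had 2 or more, and 13.1% of members lay within 1 kb of at least 2 TSSs. Of the other genes, 1346 (6.79% of all genes) had a promoter peak only in the TRPS1-WT list and 2652 (13.4%) only in the longer TRPS1-MT list. A further 989 (4.99%) had peaks in both lists without overlap, and 6875 (34.7%) had none. These shares are also the background for the genes without a member named below. The promoters with a member were CpG-rich (observed over expected CpG of at least 0.6 within 250 bp of the TSS) in 90.5% of cases (89.8 to 91.1), against 84.7% (82.4 to 86.8) of those with peaks in both lists without overlap, 68.1% of those with a peak only in the TRPS1-WT list, 60.6% only in the TRPS1-MT list and 44.5% (43.4 to 45.7) of those without a peak. A member was present at 52.8% of CpG-rich and at 12.2% of CpG-poor promoters.

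Motifs within 100 bp of the TSS itself also differed between promoters with a member and promoters without a peak. The CCAAT box was present in 29.3% and 24.1%, a difference of 5.25 percentage points (3.82 to 6.67), and among CpG-rich promoters of 8.73 points (6.94 to 10.5). The GATA motif was present in 6.69% and 14.5%, a difference of −7.82 points (−8.82 to −6.82), but among CpG-rich promoters the difference was 1.35 points (0.39 to 2.25). The GC box changed sign as well, from 23.1 points (21.5 to 24.6) over all promoters to −6.41 points (−8.31 to −4.48) among CpG-rich ones. The ETS site differed by 6.93 points (6.25 to 7.63) and 5.90 points (4.95 to 6.81), the NRF1 site by 6.83 and 4.95 and the YY1 site by 3.10 and 2.86. Over all promoters the CCAAT box was present in 25.2% of these windows, the GC box in 53.8% and the GATA motif in 10.0%.

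Gene lists of known function were set against the background of 40.1%. Lists of the basic machinery of the cell lay above it. Their promoters were nearly all CpG-rich, among them 79 of 79 ribosomal protein and 30 of 32 proteasome genes. Over all CpG-rich promoters the share with a member was 52.8%, and gene function was not separated from CpG content. A member was present at 57 of 79 cytosolic ribosomal protein genes (72.2%, 61.4 to 80.8), from 14 TRPS1-WT tags at RPL27A to 615 at RPL18, and not at RPL10, RPL10A, RPL14 and RPS2. It was present at 28 of 32 proteasome subunit genes (71.9% to 95%), from 20 tags at PSMB7 to 351 at PSMC4, and not at PSMA7 and PSMC2, nor by overlap at PSMD6 and PSMD7. The same was found at 18 of 20 cytosolic aminoacyl-tRNA synthetase genes, from QARS1 (16 tags) to LARS1 (1012 tags in the TRPS1-WT and 1054 in the TRPS1-MT library), with FARSA and WARS1 lacking a member. Members were also present at 7 of 8 genes of the CCT chaperonin, which folds actin and tubulin, from CCT5 (45 tags) to CCT6A (174 tags), and not at CCT2.

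Genes of RNA processing and DNA replication were similar. Among hnRNP genes, whose proteins bind nascent transcripts, 17 of 20 had a member (64.0% to 94.8%), from 20 tags at HNRNPLL to the 2787 of HNRNPL, and HNRNPAB, HNRNPF and HNRNPU had none. Among genes that license and open replication origins, 16 of 20 had a member, from 15 tags at MCM6 to 262 at ORC6, with MCM5, ORC5, GINS2 and GINS3 the exceptions. Of RNA polymerase II subunits 8 of 12 had one (39.1% to 86.2%, an interval that included the background), from POLR2F (15 tags) to POLR2I (135 tags), and POLR2J and POLR2L had no promoter peak in either list. Of NuRD genes, which encode a corepressor complex with deacetylase and remodelling subunits, 7 of 14 had a member (26.8% to 73.2%, which also included it). The remodeller CHD4 was the highest with 681 TRPS1-WT and 824 TRPS1-MT tags and the deacetylase HDAC2 the lowest with 55 and 80.

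Members were less frequent at genes of single tissues. A member was present at 1 of 25 hepatocyte markers (APOH, 12 tags), 1 of 25 leukocyte markers (IL7R, 133 tags), 1 of 25 skeletal muscle markers (PYGM, 11 tags) and 1 of 25 germline markers, each a share of 4.0% with an interval of 0.71 to 19.5. It was present at 2 of 14 endothelial markers (VWF and ROBO4, 18 and 56 tags) and at 4 of 25 neuronal markers. CpG-rich promoters made up 2 to 4 of the hepatocyte, leukocyte, muscle and endothelial lists, but 16 of the 25 germline genes and 16 of the 25 neuronal genes.

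HCT116 cells are epithelial and of intestinal origin. Among junction and keratin genes of epithelia, 15 of 30 had a member (33.2% to 66.8%, an interval that included the background), from EPCAM (18 tags) to JUP, which encodes plakoglobin of junctional plaques (441 TRPS1-WT and 453 TRPS1-MT tags). CDH1, which encodes E-cadherin, and KRT18 had no promoter peak in either list, while KRT8 had one only in the TRPS1-WT list and KRT19 only in the TRPS1-MT list. Of 28 genes of intestinal identity 6 had a member (10.2% to 39.5%, an interval just below the background). These were mostly transcription factors: ELF3 (566 and 433 tags), SOX9 (364 and 261), KLF5 (189 and 169), CDX2 (50 and 28) and FOXA1 (23 and 22), with the fatty acid carrier FABP1 the weakest (9 and 25). HNF4A, CDX1, MUC2 and KRT20 had no promoter peak in either list.

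Genes of mesenchymal transition were examined because the study asked how TRPS1 bears on it. Of 14 transcription factors of this programme 4 had a member (11.7% to 54.6%), among them SNAI2 (94 TRPS1-WT and 104 TRPS1-MT tags), ZEB1 (54 and 72) and TCF3 (26 and 93). The summit at ZEB1 lay at −893 bp, upstream of its TSS near the edge of the window. SNAI1, TWIST2, TCF4, FOXC2, GSC and KLF8 had no promoter peak in either list, ZEB2 had one only in the TRPS1-MT list, TWIST1 and SNAI3 only in the TRPS1-WT list, and PRRX1 had peaks without overlap. Of 30 mesenchymal and matrix genes 5 had a member (7.34% to 33.6%), the highest at TGFBR2, a receptor of TGF-β (267 and 188 tags), and the lowest at COL6A1 (37 and 31). CDH2, COL1A1, COL3A1 and PDGFRA had no promoter peak.

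TRPS1 itself had no peak of either list at its canonical promoter. Of the 6 GATA factor genes only GATA6 had a member, with 87 TRPS1-WT and 171 TRPS1-MT tags. GATA1 and GATA3 had a promoter peak only in the TRPS1-MT list, and GATA2, GATA4 and GATA5 had none. Of 11 genes of AP-1 and related subunits 4 had a member (15.2% to 64.6%). ATF3 (687 and 644 tags) and JUN (591 and 517) were high, FOSL2 (52 and 67) and JUND (19 and 43) low, and FOS, FOSL1, BATF and BATF3 had no promoter peak in either list.

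At the edges of the rule the medians were close. Shared peaks with a midpoint in the outermost 100 bp of the window (n = 256) had a median of 34 TRPS1-WT tags, and those in the 100 bp just outside it (n = 215), a median of 35. The 118 members that shared at most 20 bp with the TRPS1-MT list had a median of 23 tags. The 92 promoter peaks that missed the nearest TRPS1-MT peak by at most 20 bp had a median of 25. Over chromosomes the share of genes with a member ran from 27.3% on chromosome 21 and 28.7% on X to 46.7% on chromosome 3 and 47.7% on chromosome 6.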

How the data were processed

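Per the methods, the authors trimmed and filtered reads, aligned these to hg19 (Bowtie 0.12.8) and called peaks in each library by MACS. The methods name a release before MACS2, whereas the lists have the MACS2 layout. The labels name both hg19 and hg38, but every peak ended within its GRCh37 chromosome. The deposited values are a score (10 times −log10 q, cut to a whole number), a fold ratio over local background, −log10 p and −log10 q per peak, not scaled between libraries. The sources used here give no read depth.

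Tags were recovered from the fold and −log10 p under a Poisson model (tolerance 0.01), and 3 members stayed without a ratio. Canonical TSSs came from GENCODE release 44 on GRCh37. A member was paired with the TRPS1-MT peak sharing most bases, and 249 members had 2 such peaks. Several members could be paired with 1 TRPS1-MT peak. Shares carry 95% Wilson intervals, differences Newcombe intervals, tags and their ratios exact intervals. Newcombe intervals treat the shares as separate samples, also where these come from the same members or windows. Peaks within a library are not independent replicates, and no test between conditions was made. Scripts were tested on simulated data. Members, gene lists, motifs and alternatives were chosen with earlier results of these data known. Named genes were the 10 best by worse rank, the 5 highest and 5 lowest ratios among members with at least 100 tags in 1 library, the extremes of each list with up to 4 genes lacking a member, TRPS1, GATA, AP-1 and mesenchymal transition factors, and up to 8 strong members outside exons and not on chromosome 8. Further list genes and the words of 6 letters were named after their values were seen. The values of 1 mesenchymal transition factor are not reported here. Of 15 endothelial genes 14 matched the annotation. Tools were Python 3.11.15 with pysam 0.24.0, scipy 1.17.1, pandas 2.3.3, numpy 2.4.6 and matplotlib 3.10.9.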

Additional observations from a re-analysis of the deposited data

How the results depend on the processing

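The number of members and of genes with a member stayed within 1.5 times the reported values under 6 alternatives each, from 6341 members with a window of 500 bp to 9321 with 2 kb. The share of summits upstream moved to 66.0% with the TRPS1-MT summit and 69.1% for genes with no other canonical TSS within 1 kb. The median ratio of the libraries reversed with fold in place of tags (0.93), and so did the ratio on chromosome 3 past 90 Mb (0.89) and on the other chromosomes (0.93, added after the data were seen). With only the strongest TRPS1-WT peak under each TRPS1-MT peak, also added then, the median ratio was 1.38, and 1.81 on chromosome 3 past 90 Mb. Within 50 bp of the summit 18.9% of members held the CCAAT box and 8.79% the GATA motif, since the window is shorter, and with the TRPS1-MT summit the CCAAT share was 28.5%. Among CpG-rich promoters the difference at the TSS was 8.73 points for the CCAAT box, and it reversed for the GATA motif (1.35 points) and the GC box (−6.41 points). The share of the 100 strongest TRPS1-WT members with a CCAAT box was 66.0% within 50 bp, and 84.0% with 1 member per TSS. The GATA share was 25% within 50 bp and 36.0% when ranked by fold. Of 20 gene lists, 9 lay above the share of all genes, and 9 or 10 did so under the alternatives. No paired analysis was possible because each condition had 1 library. Without reads, replicates or a control library, the depth behind a weak peak and the spread between cultures are unknown.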
